A study of Mus musculus with 24 samples.

Results

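The genes described here encode upstream regulators of the mTOR kinase: Tsc1, Tsc2, Rheb, Ddit4, Akt1, Prkaa1, Prkaa2, Sesn1, Sesn2 and Lamtor1. Every listed region that overlapped one of these 10 genes or lay within 2 kb of it was taken, whatever its counts, which gave 34 of the 53386 regions of the series. The series profiled dimethylation of lysine 9 on histone H3 (H3K9me2), a mark of silenced chromatin, by chromatin immunoprecipitation and sequencing in heart biopsies. All 6 mice were C57BL6 animals aged 12 months, 3 female and 3 male, and all of them had undergone ischemic preconditioning, a reversible ligation of the left coronary artery with 4 cycles of 5 min of ischemia and 5 min of reperfusion and then 30 min of reperfusion. Biopsies were taken of the area at risk, which is supplied by the ligated artery (below, at-risk tissue), and of the remote myocardium outside it (below, remote tissue), and an H3K9me2 library and an input library (chromatin without precipitation) were made from each biopsy. This gave 4 groups of 6 libraries in which a mouse number stands for the same animal. Sham-operated hearts were not analysed here, so preconditioning itself is shared by all groups and is not compared.

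mTOR complex 1 is a kinase complex on the lysosome that promotes protein synthesis and restrains autophagy, and in heart muscle it takes part in growth and in the response to ischemia. Growth factors reach it through the kinase AKT, which restrains the TSC complex, while the TSC complex keeps the small GTPase RHEB, the direct activator of mTOR complex 1, in its inactive state. Low energy acts through AMP-activated protein kinase (AMPK), stress acts through the proteins encoded by Ddit4, Sesn1 and Sesn2, and amino acids act through GTPases that a lysosomal anchor, with the product of Lamtor1 as its membrane tether, holds in place.

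Values are in CPM, the reads in a region divided by the reads in all listed regions of the same library and scaled to 1000000, so a lower value means a smaller share of the reads in listed regions. H3K9me2 libraries held 416683 to 1196368 counts in at-risk tissue and 443261 to 981763 in remote tissue, and input libraries held 1286383 to 2478668 and 1405503 to 1770520. Each biopsy is bulk tissue, so a change in the share of cells that carry the mark and a change in the mark per cell cannot be told apart. H3K9me2 counts of genes that mark cell types were examined as the sum over a gene's regions. They are not expression and cannot measure the share of a cell type. None of the 5 cardiomyocyte, 4 fibroblast, 5 endothelial and 3 leukocyte marker genes with enough counts passed the H3K9me2 test between biopsies, nor did any other gene sum (0.0%).

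The 34 regions were spread unevenly over the genes, with 11 at Tsc2, 6 at Akt1, 4 at Sesn2, 3 each at Tsc1 and Prkaa1, 2 each at Rheb and Lamtor1, and 1 each at Ddit4, Prkaa2 and Sesn1. Regions are named below by gene and by their order along the chromosome. In 9 of the genes a region covered the gene start, and in Sesn1 the only region lay 15626 bp from it. Of the regions 18 stood alone and 16 overlapped another listed region. Tsc2_9 and Tsc2_10, which another region covers wholly, held 0 counts in all 24 libraries, and how reads in overlaps were counted is not given in the sources used here. The regions Prkaa1_2 and Prkaa1_3 held 15 and 24 counts in all libraries together and Tsc2_7 held 93. With these 5 regions and Akt1_5 below the filter on low counts, 28 of the 34 were tested against input in each biopsy. Prkaa1_2 and Prkaa1_3 shared 90% of their length with other listed regions, Akt1_5 80.8% and Tsc2_7 66.7%. Among the start regions, Lamtor1_1 shared 50%, Akt1_6 47.1% and Tsc2_11 40.9%. Reads in the shared stretches may be missing from these counts, which was not tested.

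The promoter sequences of these genes were mostly rich in CpG, the dinucleotide at which mammalian DNA is methylated. RefSeq gave 12 upstream windows of 250 bases for the 10 genes, with 2 each for Akt1 and Sesn1. Of these 8 end at the start of the gene as RefSeq bounds it, which is the start used for distances here, and the others at a transcript start inside the gene, 240 bp in for Tsc1 and 49 bp in for Tsc2. They held 7 to 45 CpG with a median of 23.5, and 11 of the 12 held at least 16, against 25.4% of the 32851 promoters in the table, whose median was 6. The 6 windows below are shown because they carry the contrasts described later: Rheb, Ddit4 and Sesn2 lay in regions with less H3K9me2 than input in both biopsies, Prkaa1 and Lamtor1 in regions that passed the test in 1 biopsy, and Prkaa2 in a region that passed in neither. They run from 5′ to 3′ on the strand of the gene and end at the base before the start of the gene, in build GRCm38.p6, the assembly of mm10. Capitals mark CpG.
Rheb, chr5:24842362-24842611, minus strand: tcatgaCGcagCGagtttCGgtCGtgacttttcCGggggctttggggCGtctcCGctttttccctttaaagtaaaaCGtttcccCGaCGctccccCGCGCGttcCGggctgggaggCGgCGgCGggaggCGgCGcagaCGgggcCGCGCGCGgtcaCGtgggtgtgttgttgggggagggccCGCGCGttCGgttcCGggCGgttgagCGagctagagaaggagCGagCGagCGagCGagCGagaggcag
Ddit4, chr10:59951771-59952020, minus strand: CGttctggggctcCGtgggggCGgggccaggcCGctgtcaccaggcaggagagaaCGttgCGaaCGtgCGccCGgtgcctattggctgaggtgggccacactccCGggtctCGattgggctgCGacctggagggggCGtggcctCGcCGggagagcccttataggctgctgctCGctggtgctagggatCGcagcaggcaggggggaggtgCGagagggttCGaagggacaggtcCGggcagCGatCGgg
Sesn2, chr4:132510457-132510706, minus strand: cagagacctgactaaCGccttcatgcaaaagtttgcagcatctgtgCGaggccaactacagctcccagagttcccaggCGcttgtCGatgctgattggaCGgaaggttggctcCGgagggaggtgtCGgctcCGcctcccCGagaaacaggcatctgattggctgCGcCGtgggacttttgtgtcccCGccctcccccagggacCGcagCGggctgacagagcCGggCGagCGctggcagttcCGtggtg
Prkaa1, chr15:5143611-5143860, plus strand: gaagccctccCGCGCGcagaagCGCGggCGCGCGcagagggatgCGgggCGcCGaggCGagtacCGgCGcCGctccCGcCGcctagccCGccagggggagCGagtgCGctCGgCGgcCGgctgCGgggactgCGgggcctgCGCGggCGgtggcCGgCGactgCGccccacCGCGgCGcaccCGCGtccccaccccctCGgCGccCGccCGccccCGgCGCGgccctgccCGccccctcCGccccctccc
Prkaa2, chr4:105109899-105110148, minus strand: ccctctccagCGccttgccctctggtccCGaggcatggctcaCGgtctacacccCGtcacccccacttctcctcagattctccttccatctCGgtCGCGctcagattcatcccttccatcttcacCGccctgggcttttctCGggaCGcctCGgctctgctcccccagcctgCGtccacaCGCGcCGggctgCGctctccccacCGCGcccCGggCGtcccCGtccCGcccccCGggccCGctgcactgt
Lamtor1, chr7:101905587-101905836, plus strand: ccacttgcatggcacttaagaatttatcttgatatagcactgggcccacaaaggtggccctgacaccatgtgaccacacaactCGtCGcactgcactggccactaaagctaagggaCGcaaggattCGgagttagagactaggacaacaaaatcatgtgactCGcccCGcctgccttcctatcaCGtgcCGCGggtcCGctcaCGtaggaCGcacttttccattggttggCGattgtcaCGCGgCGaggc
The window of Lamtor1 held 16 CpG, Sesn2 18, Ddit4 22, Prkaa2 24, Rheb 37 and Prkaa1 45. Short motifs, 3 in all, were searched on both strands, and the matches are descriptions of the letters only. The E-box CACGTG was found in the Rheb and Lamtor1 windows, 2 of the 12, and in 6.02% of all promoters. Its inner part ACGTG, which lies within every CACGTG, was found in the Ddit4, Lamtor1 and Rheb windows, 3 of the 12, and in 16.6% of all promoters. The GC box GGGCGG was found in 8 of the 12 and in 32.7% of all promoters.

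Against input, H3K9me2 was lower at 7 of the 9 gene starts of the set in each biopsy and at part of the other regions, and it was higher at 1 region inside Tsc1. In at-risk tissue, 14 of the 28 tested regions were lower in H3K9me2 than in input and 1 was higher, by edgeR's quasi-likelihood test at a Benjamini-Hochberg adjusted p under 0.05. Over all 40928 tested regions 23.6% passed, 12.3% lower and 11.3% higher. In remote tissue, 17 of 28 were lower and 1 was higher, against 40.5% of 40767 regions that passed, 20% lower and 20.5% higher. The median log2 fold change of H3K9me2 over input was -0.57 for the tested regions of the set in at-risk tissue and -0.73 in remote tissue, beside 0.01 over all tested regions in each. Tsc2 and Akt1 had the most tested regions, so these counts and medians weigh these genes most. Fitted without the filter on low counts, 32 regions of the set had a value, the counts that passed stayed at 14 and 1 and at 17 and 1, and the medians were -0.57 and -0.75.

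The starts are set beside the other regions as a description, with no test between them. Of the 9 regions that covered a start, 7 were lower in H3K9me2 in each biopsy, with a median log2 fold change of -0.92 in at-risk tissue and -1.01 in remote tissue. In the set only the start of the gene itself counted, whereas in the whole table any transcript start of any gene did, so these splits are not the same. Across the whole table, 34.5% and 46.3% of the regions that covered a gene start were lower, with medians of -0.33 and -0.39. Among start regions whose promoter window held at least 16 CpG, 50.3% of 2635 in at-risk tissue and 62.7% of 2620 in remote tissue were lower, against 20.3% and 31.5% of those with fewer. The median log2 fold changes over the start regions with at least 16 CpG were -0.55 and -0.61. All 9 start regions of the set had a window of at least 16 CpG, so the larger shares and these medians are their background. The 19 other tested regions had 7 lower and 1 higher in at-risk tissue, with a median of -0.24, and 10 lower and 1 higher in remote tissue, with a median of -0.63. Across the whole table, 8.8% of the regions that covered no start were lower and 12.4% higher in at-risk tissue, with a median of 0.05. In remote tissue 15.9% of them were lower and 22.5% higher, with a median of 0.06.

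**Figure D1:**
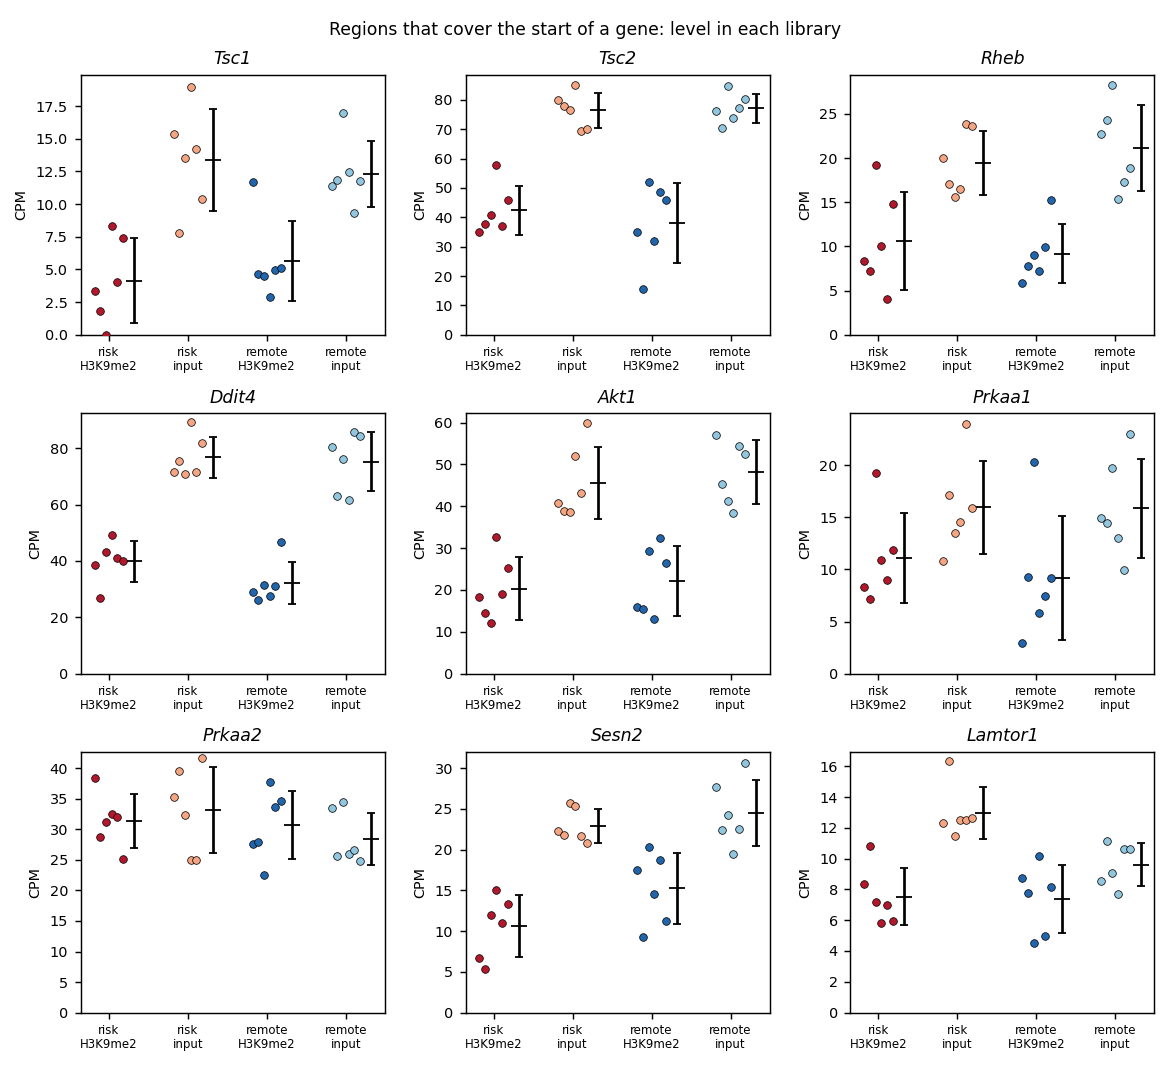
CPM of the 9 regions that cover a gene start, with 1 point per library for H3K9me2 and input of each biopsy (6 libraries a group) and, beside them, the mean with a bar of 1 SD. H3K9me2 of Ddit4 lies below input without overlap in both biopsies, whereas the 4 groups of Prkaa2 overlap.

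TSC1 and TSC2 form the core of the TSC complex, the inhibitor of RHEB. The region at the start of Tsc1 (Tsc1_1, chr2:28640600-28641799, 5′ end of the gene on the plus strand) had H3K9me2 of 0 to 8.36 CPM in at-risk tissue, with a median of 3.67, and input of 7.77 to 19.0, with a median of 13.9. In the remote libraries H3K9me2 was 2.90 to 11.7 CPM with a median of 4.82, and input was 9.30 to 16.9 with a median of 11.8. H3K9me2 had the lower median in both biopsies and the groups overlapped in both, with no H3K9me2 read in mouse 22 in at-risk tissue and the highest remote value in mouse 17. Fitted log2 fold changes were -1.47 (SE 0.34, adjusted p = 0.00121) and -1.12 (SE 0.30, adjusted p = 0.00135). They rest on few reads, since the H3K9me2 libraries together held 22 counts here in at-risk tissue and 24 in remote tissue.

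Inside the same gene the order turned. Tsc1_2 (chr2:28646600-28649199), which lies 5607 bp into Tsc1, was the only region of the set that passed with more H3K9me2 than input. Its H3K9me2 was 19.3 to 43.2 CPM in at-risk tissue with a median of 23.8, over an input of 12.5 to 21.0 with a median of 17.8. In remote tissue it was 24.4 to 29.3 with a median of 26.3, over an input of 11.4 to 21.9 with a median of 16. The remote groups did not overlap and the groups of at-risk tissue did. On the log2 scale H3K9me2 over input was 0.54 (SE 0.20, adjusted p = 0.0414) and 0.64 (SE 0.19, adjusted p = 0.00309), and the first lost its call without any one of the 6 mice, with an adjusted p of up to 0.118, and with DESeq2. Per length, H3K9me2 stood at a mean of 10.3 CPM per kb in both biopsies, near the median of 9.04 and 9.06 over all regions that stand alone, whereas its input of 6.71 and 6.39 lay below the lower quartile of 8.29 and 8.07. How far the low input enters this ratio was not tested. Tsc1_3, further along the gene, differed by 0.01 and -0.13 and passed in neither biopsy.

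The start of Tsc2 lies in a long region (Tsc2_11, chr17:24631800-24644999) that also overlaps Nthl1 and Slc9a3r2, so its reads cannot be assigned to Tsc2 alone. H3K9me2 was 35.1 to 57.7 CPM in at-risk tissue with a median of 39.3, and input was 69.5 to 85.1 with a median of 77.1. Remote H3K9me2 was 15.5 to 51.9 with a median of 40.4, and input was 70.3 to 84.7 with a median of 76.6. All H3K9me2 libraries lay below all input libraries in both biopsies. The log2 fold changes were -0.81 (SE 0.13, adjusted p = 5.95e-06) and -1.01 (SE 0.13, adjusted p = 5.55e-12).

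Of the 8 tested regions of Tsc2, 4 were lower than input in at-risk tissue and 6 in remote tissue, and Tsc2_3, Tsc2_8 and Tsc2_11 were lower in both. Their log2 fold changes against input ran from -0.82 to -0.20 in at-risk tissue and from -1.01 to -0.32 in remote tissue. Tsc2_3 was at -0.51 (adjusted p = 0.0101) and -0.78 (adjusted p = 6.84e-06), and Tsc2_8 at -0.82 (adjusted p = 0.000602) and -0.64 (adjusted p = 0.00136). Tsc2_2 and Tsc2_5 passed in remote tissue at -0.99 and -0.63 and not in at-risk tissue, at -0.56 and -0.24. Tsc2_4 passed in neither, at -0.22 and -0.35. Tsc2_6 passed in at-risk tissue at -0.74 (adjusted p = 0.0388) and was at -0.32 in remote tissue (adjusted p = 0.254), and its first call was lost without any one of mice 17, 19, 22, 23 and 30, and with DESeq2. Tsc2_1 (chr17:24588800-24595599), which lies within 2 kb of the gene and overlaps the neighbour Pkd1, was at -0.20 in at-risk tissue (adjusted p = 0.378) and at -0.80 in remote tissue (adjusted p = 5.62e-06).

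RHEB is the GTPase that activates mTOR complex 1. The start region of Rheb (Rheb_2, chr5:24840400-24842599), whose promoter window above held 37 CpG, had H3K9me2 of 4.00 to 19.2 CPM in at-risk tissue with a median of 9.19, and input of 15.5 to 23.9 with a median of 18.6. In remote tissue H3K9me2 was 5.83 to 15.3 with a median of 8.38, and input was 15.4 to 28.2 with a median of 20.8. The groups overlapped in at-risk tissue, where mouse 22 was high, and did not in remote tissue. Fitted log2 fold changes were -0.98 (SE 0.26, adjusted p = 0.00411) and -1.13 (SE 0.24, adjusted p = 3.23e-05). Without mouse 27 the call in at-risk tissue was lost, with a value of -0.69 on the log2 scale (adjusted p = 0.0705). Rheb_1, far from the start, was at -0.18 and -0.30 and passed in neither biopsy.

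Ddit4 encodes REDD1, a stress-induced protein that acts through the TSC complex to restrain mTOR complex 1. Its only region (Ddit4_1, chr10:59944400-59952799) covers the whole gene, start and end included. The region is 8400 bp long and the gene 2096 bp, so most of the region lies outside the gene. H3K9me2 was 27.0 to 49.3 CPM in at-risk tissue with a median of 40.5, and input was 71.0 to 89.2 with a median of 73.6. In the remote libraries H3K9me2 was 26.3 to 46.9 with a median of 30.2, and input was 61.5 to 85.7 with a median of 78.3. No H3K9me2 library of either biopsy reached the lowest input library of that biopsy. On the log2 scale H3K9me2 over input was -0.92 (SE 0.13, adjusted p = 5.29e-07) and -1.18 (SE 0.13, adjusted p = 1.32e-14), the latter the smallest adjusted p of the set. Per length, H3K9me2 stood at a mean of 4.74 and 3.82 CPM per kb, below the lower quartiles of 7.14 and 7.0 over all regions that stand alone, while input stood at 9.14 and 8.96, close to the input medians of 8.95 and 8.84.

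Akt1 encodes a kinase that phosphorylates TSC2 downstream of insulin and growth factor receptors. Its start region (Akt1_6, chr12:112668200-112678399) also overlaps Gm30150. H3K9me2 was 12.0 to 32.6 CPM in at-risk tissue with a median of 18.7, and input was 38.5 to 59.8 with a median of 42.0. Remote H3K9me2 was 13.1 to 32.4 with a median of 21.3, and input was 38.5 to 56.9 with a median of 48.9. The groups did not overlap in either biopsy. The log2 fold changes were -1.07 (SE 0.17, adjusted p = 9.28e-06) and -1.09 (SE 0.16, adjusted p = 2.12e-09).

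At Akt1 the lower H3K9me2 was not limited to the start. All 5 tested regions of the gene were lower than input in both biopsies, with log2 fold changes from -1.07 to -0.60 in at-risk tissue and from -1.33 to -0.74 in remote tissue. Akt1_2 was at -1.04 in both (adjusted p = 0.000135 and 1.09e-06), and Akt1_3 was at -0.81 and -1.03. Akt1_4 (chr12:112664800-112667199) was at -0.60 in at-risk tissue (adjusted p = 0.0409) and at -1.33 in remote tissue (adjusted p = 5.76e-07), where H3K9me2 of 2.90 to 13.9 CPM lay wholly below input of 18.9 to 28.3. In at-risk tissue, the calls of Akt1_4 and of Akt1_1 (-0.61, adjusted p = 0.0343) were each lost in 4 of the 6 fits that left out a mouse and with DESeq2.

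**Figure D2:**
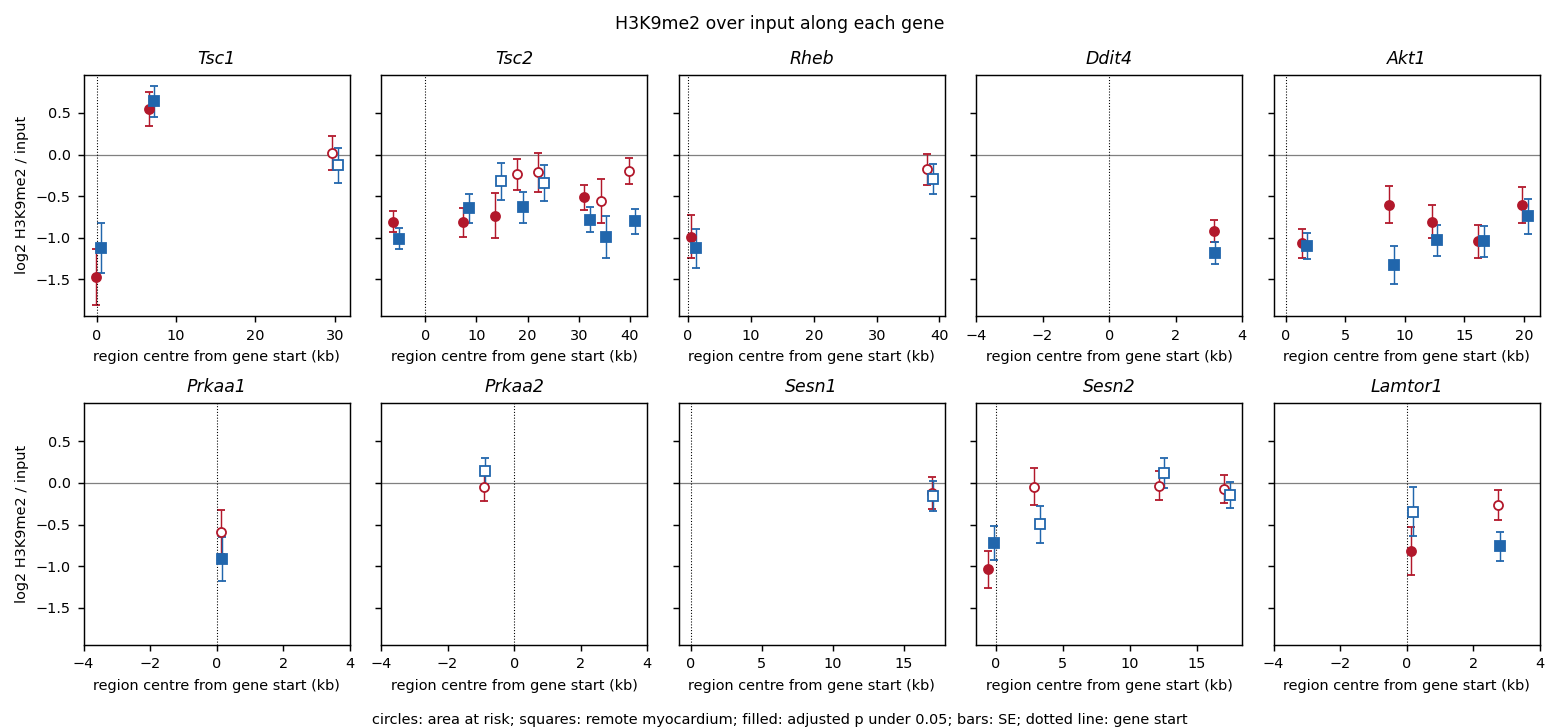
Log2 fold change of H3K9me2 over input for the tested regions of the 10 genes, plotted by the distance of the region's centre from the gene start in kb, with bars of 1 SE; circles stand for at-risk tissue, squares for remote tissue, and filled symbols for an adjusted p under 0.05. Regions at a start are mostly below 0 and Tsc1_2 lies above it.

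AMPK, the cellular energy sensor, phosphorylates TSC2 when ATP is low, and Prkaa1 and Prkaa2 encode its alternative catalytic subunits. At the start of Prkaa1 (Prkaa1_1, chr15:5143200-5144799), the window richest in CpG of the set, H3K9me2 was 7.20 to 19.2 CPM in at-risk tissue with a median of 9.94, and input was 10.8 to 23.9 with a median of 15.2. In remote tissue H3K9me2 was 2.91 to 20.3 with a median of 8.33, and input was 9.97 to 23.0 with a median of 14.7. The groups overlapped in both biopsies, and mouse 22 gave the highest H3K9me2 value in each. The H3K9me2 libraries together held 47 counts here in at-risk tissue and 36 in remote tissue. Fitted log2 fold changes were -0.59 (SE 0.26, adjusted p = 0.0918) and -0.91 (SE 0.26, adjusted p = 0.00272). Without mouse 22 the region also passed in at-risk tissue, at -0.77 with an adjusted p of 0.0449.

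Prkaa2, the subunit gene that predominates in heart and skeletal muscle, had the start region nearest to its input in both biopsies. Its region (Prkaa2_1, chr4:105109000-105112599, which also overlaps Gm36893) had H3K9me2 of 25.2 to 38.4 CPM in at-risk tissue with a median of 31.6, and input of 25.0 to 41.7 with a median of 33.9. In the remote libraries H3K9me2 was 22.6 to 37.8 with a median of 30.8, and input was 24.8 to 34.5 with a median of 26.3. All 4 groups overlapped. On the log2 scale H3K9me2 over input was -0.05 (SE 0.16, adjusted p = 0.853) and 0.15 (SE 0.16, adjusted p = 0.480). Per length, H3K9me2 of 8.72 and 8.53 CPM per kb lay between the quartiles over all regions that stand alone, whereas that of Ddit4 lay below them. The Prkaa2 window printed above held 24 CpG and that of Ddit4 22, and whether CpG content has a part in this contrast was not tested.

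SESN1 and SESN2 are sestrins, stress-induced proteins that restrain mTOR complex 1 through the amino acid sensing machinery and through AMPK. The only region of Sesn1 (Sesn1_1, chr10:41826200-41828999) had H3K9me2 of 16.2 to 27.0 CPM in at-risk tissue and input of 16.2 to 29.6, and in remote tissue H3K9me2 of 11.7 to 29.9 and input of 22.0 to 29.6. The groups overlapped in both, with log2 fold changes of -0.12 (adjusted p = 0.674) and -0.16 (adjusted p = 0.500). The start region of Sesn2 (Sesn2_4, chr4:132509400-132512199) differed from this: H3K9me2 was 5.40 to 15.0 CPM in at-risk tissue with a median of 11.5 and input was 20.8 to 25.7 with a median of 22.0, without overlap. Remote H3K9me2 was 9.29 to 20.3 with a median of 16 and input was 19.5 to 30.7 with a median of 23.4, with overlap. The log2 fold changes of Sesn2_4 were -1.04 (SE 0.23, adjusted p = 0.000589) and -0.72 (SE 0.20, adjusted p = 0.00204). The 3 other regions of Sesn2 passed in neither biopsy, with log2 fold changes from -0.50 to 0.12.

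LAMTOR1 tethers the Ragulator complex to the lysosome, where the amino acid branch brings mTOR complex 1 to RHEB. At the start of Lamtor1 (Lamtor1_1, chr7:101904400-101907599, which also overlaps Tomt), H3K9me2 was 5.85 to 10.8 CPM in at-risk tissue with a median of 7.10, and input was 11.5 to 16.3 with a median of 12.5. In remote tissue H3K9me2 was 4.51 to 10.2 with a median of 7.94, and input was 7.69 to 11.2 with a median of 9.83. Input and H3K9me2 were apart in at-risk tissue and overlapped in remote tissue. The H3K9me2 libraries together held only 32 counts here in each biopsy. The log2 fold changes were -0.82 (SE 0.29, adjusted p = 0.0299) and -0.35 (adjusted p = 0.356), and the first was lost without mouse 23, 27 or 30, and with DESeq2. The fitted input difference between biopsies was 0.42 here on the log2 scale, and input was higher in at-risk tissue in 6 of 6 mice without overlap of the groups, though it did not pass the test. Its part in the result of at-risk tissue was not tested. The overlapping Lamtor1_2 (chr7:101906000-101911199) was at -0.27 in at-risk tissue (adjusted p = 0.286) and at -0.76 in remote tissue (adjusted p = 0.000171), where H3K9me2 of 14.6 to 27.1 CPM lay wholly below input of 28.3 to 39.2.

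Over the 28 tested regions, 12 were lower than input in both biopsies, as were 10.4% of the 40333 regions tested in both. Tsc1_2 was higher in both, as were 9.38% of those 40333. Lamtor1_1 and Tsc2_6 were lower in at-risk tissue and missed the threshold in remote tissue. Prkaa1_1, Lamtor1_2, Tsc2_1, Tsc2_2 and Tsc2_5 were lower in remote tissue and missed the threshold in at-risk tissue. The remaining 8 of the set passed in neither. Over all tested regions, 12.3% were lower in at-risk tissue and 20% in remote tissue, and the share lower in 1 biopsy only was not counted. A call in 1 biopsy and not in the other does not show that the biopsies differ, and the difference itself was tested below. In the authors' deposited tables, 15 of the 34 regions had an FDR under 0.05 in at-risk tissue, 14 of them lower in H3K9me2, beside 17.2% of all listed regions, 9.45% lower. For remote tissue the authors' deposited table had 18 of the 34, 17 of them lower, beside 28.5% of all, 14.3% lower.

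Summed over all regions of a gene, 4 of the 10 genes had less H3K9me2 than input in at-risk tissue and 6 in remote tissue, and none had more. Among all genes, 42.3% of 17657 differed in at-risk tissue (21.0% lower, 21.3% higher) and 55.1% of 17624 in remote tissue (27.3% lower, 27.8% higher). Akt1 was at -0.74 and -0.93 (adjusted p = 8.14e-06 and 1.8e-17), Ddit4 at -0.81 and -1.07, Tsc2 at -0.45 and -0.65 and Rheb at -0.37 and -0.50 on the log2 scale. Prkaa1, at -0.50 and -0.87, and Lamtor1, at -0.31 and -0.54, passed in remote tissue. Tsc1, Prkaa2, Sesn1 and Sesn2 passed in neither and lay between -0.15 and 0.26. Sums are scaled to counts in gene regions, which put the genes with 1 region 0.10 to 0.11 above their region's own value. The sum of Tsc2 rested on overlapping regions: with regions that stand alone only, it was at -0.16 in at-risk tissue (adjusted p = 0.432). The call of Rheb in at-risk tissue (adjusted p = 0.0367) was lost without mouse 17, 19 or 27 and with DESeq2.

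Between at-risk tissue and remote tissue, no region of the set passed the test for H3K9me2. The 19 regions with enough H3K9me2 counts for this comparison, which include 4 of the 9 at a start, had 0 calls by edgeR and by DESeq2, as had all 31526 regions tested (0.0%). By unadjusted edgeR p under 0.05 there were also 0 among the 19, and 1272 in the whole table, where DESeq2 gave 454. Log2 differences, at-risk over remote tissue, ran from -0.09 to 0.43 with a median of 0.11, beside 0.00 for all regions, and 15 of the 19 were above 0 against 50.3% of all. The median SE was 0.22, and 12 of the 19 values were smaller than their SE. The smallest p belonged to Lamtor1_2, at 0.43 (SE 0.22), which was higher in at-risk tissue in 4 of 6 mice. Ddit4_1 was at 0.31 (SE 0.18), higher in 5 of 6 mice, and its 2 groups of 27.0 to 49.3 and 26.3 to 46.9 CPM overlapped. Every adjusted p of the set was 0.999. As gene sums, 9 of the 10 genes were tested and 0 passed by edgeR, with 0 under an unadjusted p of 0.05, and by DESeq2.

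The inputs of the biopsies gave no call in the set either. Of 29 tested regions 0 passed by edgeR or DESeq2, as did 0.0% of all 42603, with log2 differences from -0.33 to 0.42. Of the 29, only Tsc2_1 had an unadjusted edgeR p under 0.05, at -0.33, with lower input in at-risk tissue in 6 of 6 mice. Over all 42603 regions, 1157 were under that level by edgeR.

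With each biopsy's input taken into account in a single fit over all 24 libraries, 0 of 28 regions, all 9 starts among them, passed between biopsies by edgeR or DESeq2, as did 0.0% of 42445. The median input-corrected log2 difference of the set was 0.15, beside 0.01 for all regions, and 20 of the 28 lay above 0, against 50.9% of all. By unadjusted edgeR p, 2 regions were under 0.05: Tsc2_1 at 0.61 (SE 0.22) and Akt1_4 at 0.73 (SE 0.34), each with an adjusted p of 1.00. Of all regions, 1728 were under that level by edgeR and 1127 by DESeq2. At Tsc2_1 the input difference was the -0.33 given above, while its H3K9me2 of 18.4 to 37.0 CPM in at-risk tissue and 18 to 28.7 in remote tissue overlapped. By construction the input-corrected value is the H3K9me2 difference less the input difference, so both enter it. At Tsc2_1 mean H3K9me2 was 29.6 CPM in at-risk tissue and 24.1 in remote tissue, and mean input was 34.1 and 43.0. These parts were not tested apart from each other.

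**Figure D3:**
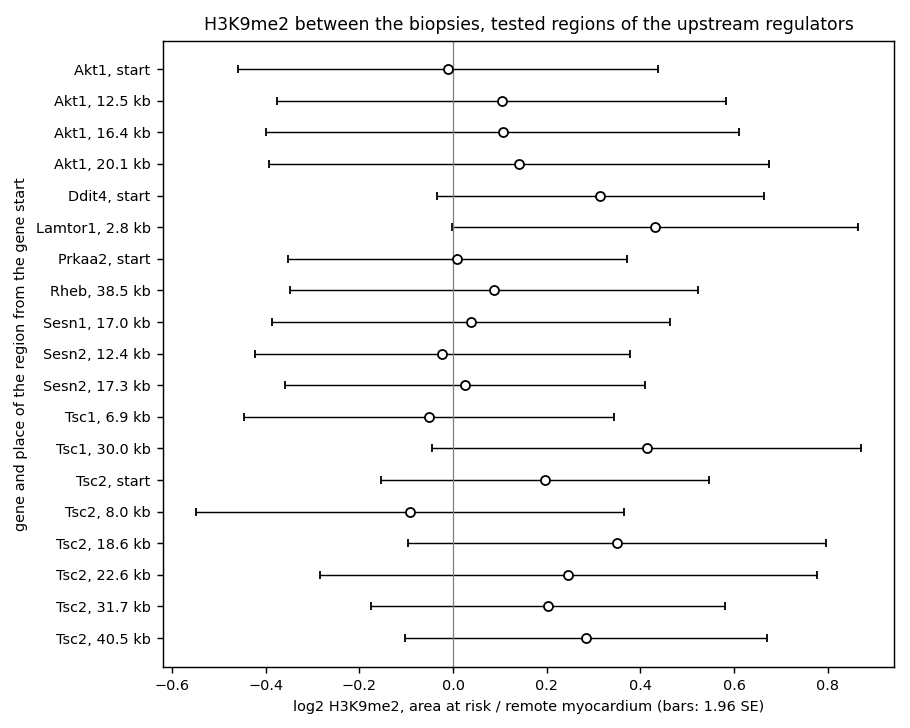
Log2 difference, at-risk over remote tissue, of H3K9me2 for the 19 tested regions of the set, with bars of 1.96 SE. The values lie between -0.09 and 0.43 and none passed the test.

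Other genes upstream of mTOR complex 1 were described with a list of 49, of which 38 had a region. The list also held Akt1s1 and Deptor, which encode inhibitors of mTOR itself and were counted in the growth factor group. By gene sums, 11 of the 38 were lower and 4 higher than input in at-risk tissue, with a median log2 fold change of -0.06, and 13 were lower and 6 higher in remote tissue, with a median of -0.07. Over all genes, 21.0% were lower and 21.3% higher in at-risk tissue and 27.3% and 27.8% in remote tissue. The 10 genes of the set had medians of -0.34 and -0.52. In the amino acid sensing group 6 of 18 were lower in each biopsy and 2 and 3 were higher, in the growth factor group 4 and 5 of 11 were lower and 1 was higher in each, and in the AMPK group 1 and 2 of 9 were lower and 1 and 2 were higher. Stk11, which encodes the kinase LKB1 that activates AMPK, had the smallest adjusted p among the lower ones, at -0.93 (adjusted p = 1.65e-07) and -0.89 (adjusted p = 1.41e-11). Lamtor2, a Ragulator partner of Lamtor1, was at -0.77 and -0.91, and Akt1s1, which encodes an mTOR complex 1 inhibitor that AKT phosphorylates, was at -0.70 and -1.24. Among the higher ones, Deptor, which encodes an mTOR inhibitor, was at 0.48 and 0.57, and Prkag2, which encodes a regulatory subunit of AMPK, was at 0.26 and 0.20. Castor2, of the arginine sensor family, was at 0.39 and 0.30. None of the list passed between biopsies by edgeR in H3K9me2, input or the input-corrected fit.

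**Figure D4:**
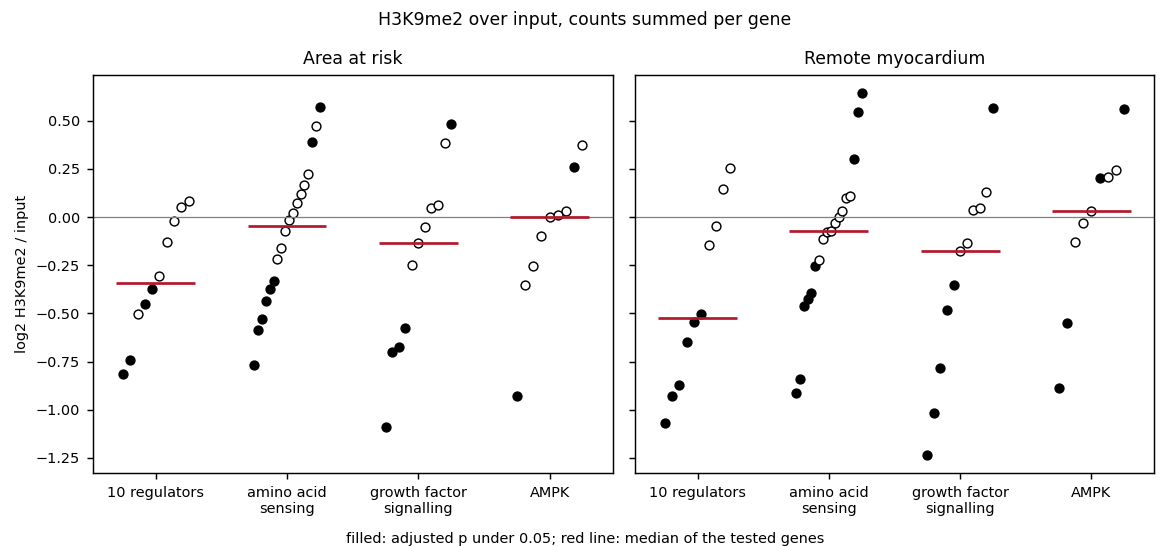
Log2 fold change of H3K9me2 over input for the counts summed per gene, 1 point per gene, for the 10 regulators and the 3 groups of other listed genes, in at-risk tissue and remote tissue. Filled points passed the test, the red line is the median of each group, and the lines of the 10 regulators stand at -0.34 and -0.52.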

How the data were processed

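H3K9me2 and input libraries of 2 biopsies from each of 6 mice were analysed (24 libraries, 4 groups of 6). The authors deposited 4 tables that list the same 53386 mm10 regions, each with 12 columns of whole-number counts per region and library, as the values show. Each also holds a log2 fold change, a log2 mean CPM, a p-value and its FDR, per the file headers. The deposited log2 fold change divides the last 6 columns by the first 6, opposite in sign to the one used here. Bowtie2 2.2.2, SICER 1.1 and edgeR are named per the submitters' processing notes, and their roles, the calling of regions across libraries and the handling of duplicate reads are not given in the sources used here. If regions were called on H3K9me2, regions without the mark would be missing from the list, and values are shares of the listed regions only.

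Regions were assigned to genes by RefSeq coordinates of GRCm38.p6, with strand from the RefSeq promoter table. Counts were fitted with edgeR 4.0.16 in R 4.3.3 (TMM normalization, filterByExpr, two-sided quasi-likelihood test) across all regions, and across all genes for counts summed per gene. Calls were made at a Benjamini-Hochberg FDR of 0.05 over all features tested. SE is the log2 fold change divided by the square root of F. Each biopsy contrast used its 12 libraries, and the input-corrected difference was the interaction term of a fit to 24 libraries. The scripts were tested on simulated data. The intervals and spreads cover these 6 animals.

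The mouse number pairs the libraries, since the same animal gave all 4. After subtraction of group means, libraries of the same mouse correlated at -0.18 to 0.06 (H3K9me2 of both biopsies), -0.01 to 0.17 (H3K9me2 with input, at-risk tissue), 0.01 to 0.08 (H3K9me2 with input, remote tissue) and -0.08 to 0.03 (inputs of both biopsies). In the same order, libraries of different mice correlated at -0.11 to 0.17, -0.12 to 0.08, -0.06 to 0.02 and -0.05 to 0.08.

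The genes and lists were chosen with earlier results of these data known. All 10 genes were described, with every region called and the region at the gene start, and of other pathway genes up to 3 sums of smallest p in each direction against input. A gene that the rule selects is not reported here. Alternatives were a mouse block, RLE factors, no scaling factors (chosen after seeing the data), DESeq2 1.42.0, no filter, each mouse left out, FDR 0.01, no flank, and only regions that overlap no other. Sequence of the regions themselves was not used here.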

Additional observations from a re-analysis of the deposited data

Results flagged for a closer look

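Each of the 4 groups of 6 libraries was examined for 39 regions and gene sums, 156 groups in all, for a highest or lowest mouse whose gap to the next exceeded Dixon's critical share of the group's range. Chance flags about 1 in 20 groups, and 8 of the 156 were flagged here, which is near that share. Of the 8, 2 are gene sums that repeat a flagged region. In H3K9me2 of remote tissue, mouse 23 was at 24.7 CPM at Akt1_3 with the next mouse at 17.5, and mouse 17 was at 11.7 CPM at Tsc1_1 with the next at 5.09. Mouse 30 was at 46.9 CPM at Ddit4_1 with the next at 31.6, which is also the gene sum of Ddit4 (46.9 CPM). Mouse 22 was at 20.3 CPM at Prkaa1_1 with the next at 9.29, and the gene sum of Prkaa1 gave the same 20.3 CPM. In at-risk tissue, mouse 23 had H3K9me2 of 35.9 CPM at Tsc2_5 with the next at 22.0, and mouse 19 had an input of 16.3 CPM at Lamtor1_1 with the next at 12.6. No difference between biopsies in the contrast with input passed the test.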

How the results depend on the processing

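No called member region or gene sum changed direction under the alternatives run, while the median over all regions against input, 0.01 in each biopsy, was -0.01 in each without the filter. In at-risk tissue, the 15 member regions called against input became 9 at FDR 0.01 and 7 of 18 with only regions that overlap no other, where fewer regions were tested, and were 10 with DESeq2 and 10 to 12 with a mouse left out. Of the 15, 8 passed in all 6 fits that left out a mouse, Tsc1_1 passed in the 5 fits that tested it (its counts were below the filter in the other), and of the 4 gene sums 3 passed in all 6, with 3 to 5 called. In remote tissue, the 18 called regions became 11 of 18 tested with only regions that overlap no other and were 18 without each mouse in turn, and the 6 gene sums were 6 to 7. The gene sum of Prkaa2 passed there without mouse 22 only, at 0.38 (adjusted p = 0.0483), and that of Prkaa1 in at-risk tissue, at -0.68 (adjusted p = 0.0465). With the mouse as replicate block the counts were 15 and 18 regions and 4 and 6 gene sums, and 0 between the biopsies in H3K9me2, input and the input-corrected difference, so the pairing changed no call of the set. Member calls between biopsies were 0 under every alternative run. Over the whole table, 1 region was called for H3K9me2 between biopsies without mouse 19 and 1 gene sum for input without mouse 23. Over all regions of at-risk tissue, 9670 calls became 5056 at FDR 0.01. No scaling moved the median of all features by over 0.1. The H3K9me2 libraries hold fewer counts than the inputs, so 19 regions of the set passed the filter between the H3K9me2 groups and 29 between the inputs. For the calls that were lost with a mouse left out, the cause was not tested.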
